A study of Mus musculus with 36 samples.

Results

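The interferon-stimulated genes described here are 35 genes that were taken by name from the count tables, out of 54146 annotated genes in the libraries of 3 months. They are textbook targets of interferon signalling. All 35 were present at each age, and 35 of 35 passed the filter on low counts at 3 months, against 33 at 1 month and 33 at 2 months, where Mx1 and Zbp1 had too few counts. At 3 months Mx1, Oas1a and Zbp1 passed only through the Tpp1-/- libraries. The filter needs 3 libraries at about 10 counts, and of the 6 control libraries 0, 1 and 0 reached that level, so it favoured a rise in these 3, and the main counts are given without them as well. Type I interferons are secreted proteins that bind the receptor made of Ifnar1 and Ifnar2. The receptor's kinases then phosphorylate Stat2, which joins Irf9 in a complex that binds a short promoter motif, the interferon-stimulated response element (ISRE), and switches on a shared set of antiviral genes. Their products sense foreign nucleic acid, bind or degrade viral RNA, modify proteins with the ubiquitin-like Isg15 and block the entry and release of viruses. In brain, microglia, astrocytes, endothelial cells and neurons can all respond, and raised interferon-stimulated genes are known from ageing and neurodegeneration without infection.

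The libraries were made from messenger RNA of the cerebellum (Cb) and the forebrain/midbrain (F/M) of mice with a targeted disruption of Tpp1, the gene of the lysosomal protease tripeptidyl peptidase whose loss causes the CLN2 form of neuronal ceroid lipofuscinosis. Tpp1-/- mice carry the disruption in every cell from conception, and the controls were unaffected siblings of the same age, and neither group carries a transgene or was treated. There were 3 Tpp1-/- and 3 control libraries for each region at 1, 2 and 3 months, 36 in all. The controls were wild type by label, except that control replicate 3 of 1 month was Tpp1+/- in each region. Each library is whole tissue of its region, in which fewer cells of a type and less RNA per cell cannot be told apart. The replicates are described as biological triplicates, and whether the F/M and Cb libraries of a number came from the same mouse is not given in the sources used here. The p-values measure the spread between these libraries.

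Total counts ran from 10609896 to 29942380 per library, with a median of 21049839. Tpp1 itself lay between 42.1 and 111 CPM (the counts of a library scaled to a common total, with TMM factors) in the control libraries and between 16.1 and 27.8 CPM in the Tpp1-/- libraries of all ages, so no Tpp1-/- library overlapped the controls. The summed level of cerebellar marker genes was 6422 to 8543 CPM in Cb and 229 to 313 CPM in F/M, and forebrain markers summed to 736 to 883 CPM in F/M and 141 to 199 CPM in Cb. The sex labels did not hold. All 12 libraries of 3 months carried Xist, at 487 to 1538 CPM, and at most 0.0423 CPM of the Y-linked Ddx3y, although 8 of them were labelled male. All 12 libraries of 1 month had Ddx3y at 90.4 to 137 CPM and Xist at no more than 0.268 CPM, although 4 were labelled female. The 12 libraries of 2 months, all labelled male, had Ddx3y at 76.9 to 134 CPM and Xist at no more than 9.32 CPM. In all, 12 of 36 libraries went against their sex label. All libraries of an age lay within these ranges, whereas the libraries of 3 months differed from the others in sex pattern, annotation release and counting run as well as in age, and these cannot be told apart.

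The promoters of 7 members that were called at 3 months are printed first, because the ISRE is the sequence by which the pathway reaches its targets. They include every called member found with the core before its start, so the 5 of 7 that hold it are no share of the called members. RefSeq promoter windows (GRCm38.p6, 250 bases before and 50 after a start) were found for 27 of the 35 members. The core of the ISRE, which is GAAA, any 2 bases (NN) and again GAAA, was searched on both strands, where the other strand reads TTTC, any 2 bases and TTTC. It occurred in a window of 15 of the 27 members, a share of 55.6%, and in a window of 3.99% of 27025 genes. A STAT site, TTCNNNGAA, which reads the same on both strands, occurred for 6 of the 27 members (22.2%) and for 9.55% of all genes. The ISRE core was found in 6 of the 12 members with a window that were called at 3 months and in 9 of the 15 that were not called, and the STAT site in 1 of the 12 (8.33%) and 5 of the 15 (33.3%). Of the called members with a window that are not printed, Irf7, Irf9, Ifi35 and Ifi44 hold no core. That of Ddx58 begins 2 bases after the start. A match is a description of these letters and not a measured site.

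The bases before the first annotated transcript start are given 5′ to 3′ in the direction of the gene, with matches to the ISRE core in capitals. Ifit1 (chr19:34640639-34640870, plus strand), Ifit3 (chr19:34583279-34583528, plus strand) and Ifit3b (chr19:34607707-34607956, plus strand) each hold 2 matches, Gbp3 (chr3:142559794-142560025, plus strand) holds 2 that overlap and Rsad2 (chr12:26456453-26456702, minus strand) holds 1. Oasl2 (chr5:114896684-114896933, plus strand) and Lgals3bp (chr11:118402093-118402209, minus strand), the members called in both regions that had a window, hold none in these bases.
Ifit1: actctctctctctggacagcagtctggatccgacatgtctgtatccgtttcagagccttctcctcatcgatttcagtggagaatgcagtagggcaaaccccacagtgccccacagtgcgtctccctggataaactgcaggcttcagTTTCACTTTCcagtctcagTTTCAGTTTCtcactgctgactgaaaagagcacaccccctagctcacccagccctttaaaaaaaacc
Ifit3: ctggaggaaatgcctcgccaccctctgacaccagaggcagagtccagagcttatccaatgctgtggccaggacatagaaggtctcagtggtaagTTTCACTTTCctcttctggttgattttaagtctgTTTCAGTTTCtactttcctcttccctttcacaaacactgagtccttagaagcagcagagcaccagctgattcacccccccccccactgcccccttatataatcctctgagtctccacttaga
Ifit3b: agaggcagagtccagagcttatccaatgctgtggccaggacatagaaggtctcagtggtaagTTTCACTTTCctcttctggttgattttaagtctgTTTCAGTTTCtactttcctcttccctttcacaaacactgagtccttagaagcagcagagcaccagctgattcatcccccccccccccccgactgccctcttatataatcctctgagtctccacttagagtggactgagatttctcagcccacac
Gbp3: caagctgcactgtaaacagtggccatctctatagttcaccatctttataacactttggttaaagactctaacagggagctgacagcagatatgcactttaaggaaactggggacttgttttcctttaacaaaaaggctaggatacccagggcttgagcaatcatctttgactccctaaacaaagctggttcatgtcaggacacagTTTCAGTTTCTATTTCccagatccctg
Rsad2: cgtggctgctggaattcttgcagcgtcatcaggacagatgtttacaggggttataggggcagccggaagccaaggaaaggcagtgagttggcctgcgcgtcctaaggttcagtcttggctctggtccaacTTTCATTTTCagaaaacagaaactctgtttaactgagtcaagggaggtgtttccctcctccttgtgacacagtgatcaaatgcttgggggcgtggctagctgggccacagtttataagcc
Oasl2: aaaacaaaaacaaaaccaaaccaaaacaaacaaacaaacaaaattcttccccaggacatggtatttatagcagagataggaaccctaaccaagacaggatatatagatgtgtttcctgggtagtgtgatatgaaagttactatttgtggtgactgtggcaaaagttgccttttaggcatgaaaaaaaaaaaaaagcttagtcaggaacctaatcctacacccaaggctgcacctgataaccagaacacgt
Lgals3bp: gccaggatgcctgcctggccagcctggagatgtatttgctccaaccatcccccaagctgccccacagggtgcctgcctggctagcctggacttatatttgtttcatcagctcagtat

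The first match began 104 bases before the RefSeq start in Ifit1, which lies 18 bases beyond the end of the printed run, and 120 bases before that of Rsad2. The windows of Ifit3 and Ifit3b shared an unbroken run of 169 bases that held both of their matches. The transcripts of this pair are alike as well. Of all 50-base words in the transcripts of Ifit3, 51.2% also occur in another gene, chiefly Ifit3b, and the share was 45.0% for Ifit3b. It was 57.6% for Oas1a, chiefly with Oas1g, and at most 12.7% for every other member. With reads of that length the counts of Ifit3, Ifit3b and Oas1a are uncertain, since reads from one copy could be counted for the other.

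In the Tpp1-/- F/M of 3 months, 15 of the 35 members were raised and none was lowered, by edgeR's quasi-likelihood test at an adjusted p below 0.1 with at least a 1.5-fold difference. Over all 17224 genes tested, 0.412% were higher by the same rule. In Cb, 4 members were raised and none was lowered, where 0.673% of all genes were higher. The 3 members called in both regions were Lgals3bp, Mx1 and Oasl2, which are 3 of the 15 in F/M and 3 of the 4 in Cb. In F/M, Irf7, Irf9, Usp18, Ifit1, Ifit3, Ifit3b, Rsad2, Ifi44, Gbp3, Parp14, Ddx58 and Zbp1 rose as well, and in Cb so did Ifi35. Without Mx1, Oas1a and Zbp1, the counts were 13 of 32 members in F/M and 3 of 32 in Cb. The count in F/M was 9 without F/M Tpp1-/- replicate 2, 21 without Cb Tpp1-/- replicate 1 and 24 with the 6 F/M libraries fitted alone. Isg15, Bst2, Gbp2, Ifi27l2a and Rtp4, which missed the call in F/M, passed it under DESeq2, with no filter on low counts and with those 6 libraries alone. The count in Cb was 1 without Cb control replicate 1 or Cb Tpp1-/- replicate 3, and 2 without Cb control replicate 2 or 3, F/M control replicate 2 or 3, or F/M Tpp1-/- replicate 2 (all 12 libraries share 1 estimate of the spread). It was 6 with no filter on low counts, and 5 under DESeq2, with no fold minimum or without Cb Tpp1-/- replicate 1. Ifi44 passed in Cb with no filter, under DESeq2 and without that replicate, and Ifit1 with no filter. Over 21 other settings, 12 of them without 1 library each and 1 with a covariate from the sex labels that did not hold, Ifit1, Ifit3, Ifit3b, Oasl2, Irf9, Ifi44, Gbp3 and Lgals3bp kept their call in F/M under all, as did Mx1 in the 20 that tested it. Rsad2 kept it under 19, Ddx58 and Parp14 under 16, Usp18 under 15, Irf7 under 10 of 21 and Zbp1 under 7 of 19. In Cb, Lgals3bp kept its call under all 21, Ifi35 under 17, Oasl2 under 11 and Mx1 under 9 of 20.

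The other members lay on the same side. All 35 log2 fold changes were above 0 in each region, against 49.2% of all genes in F/M and 49.2% in Cb, and with 1 library left out the sign of Cmpk2, Dhx58, Stat2, Ifitm3 or Ifit2 could turn. Their median was 0.91 in F/M and 0.50 in Cb, where the median of all genes was 0.00 in each region. At an unadjusted p under 0.05, 32 members were higher in F/M and 22 in Cb, beside 3.8% and 3.23% of all genes. The lowest Tpp1-/- library stood above the highest control for 32 members in F/M and 18 in Cb, beside 11.8% and 4.46% of all genes. Without Mx1, Oas1a and Zbp1, 32 of 32 log2 fold changes were above 0 in each region, the medians were 0.90 and 0.45, 29 and 20 members had an unadjusted p under 0.05, and 29 and 16 had groups that did not overlap, in F/M and Cb in turn. The mean log2 CPM over the members exceeded the control mean by 1.13, 0.97 and 0.78 in Tpp1-/- replicates 1, 2 and 3 of F/M, and by 0.62, 0.34 and 0.56 in those of Cb. That mean includes Mx1, Oas1a and Zbp1 and was not formed without them, so the filter favoured a higher value. Replicate 1 was the highest of the 3 Tpp1-/- libraries of F/M for 25 members and replicate 3 the lowest for 28.

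**Figure D1:**
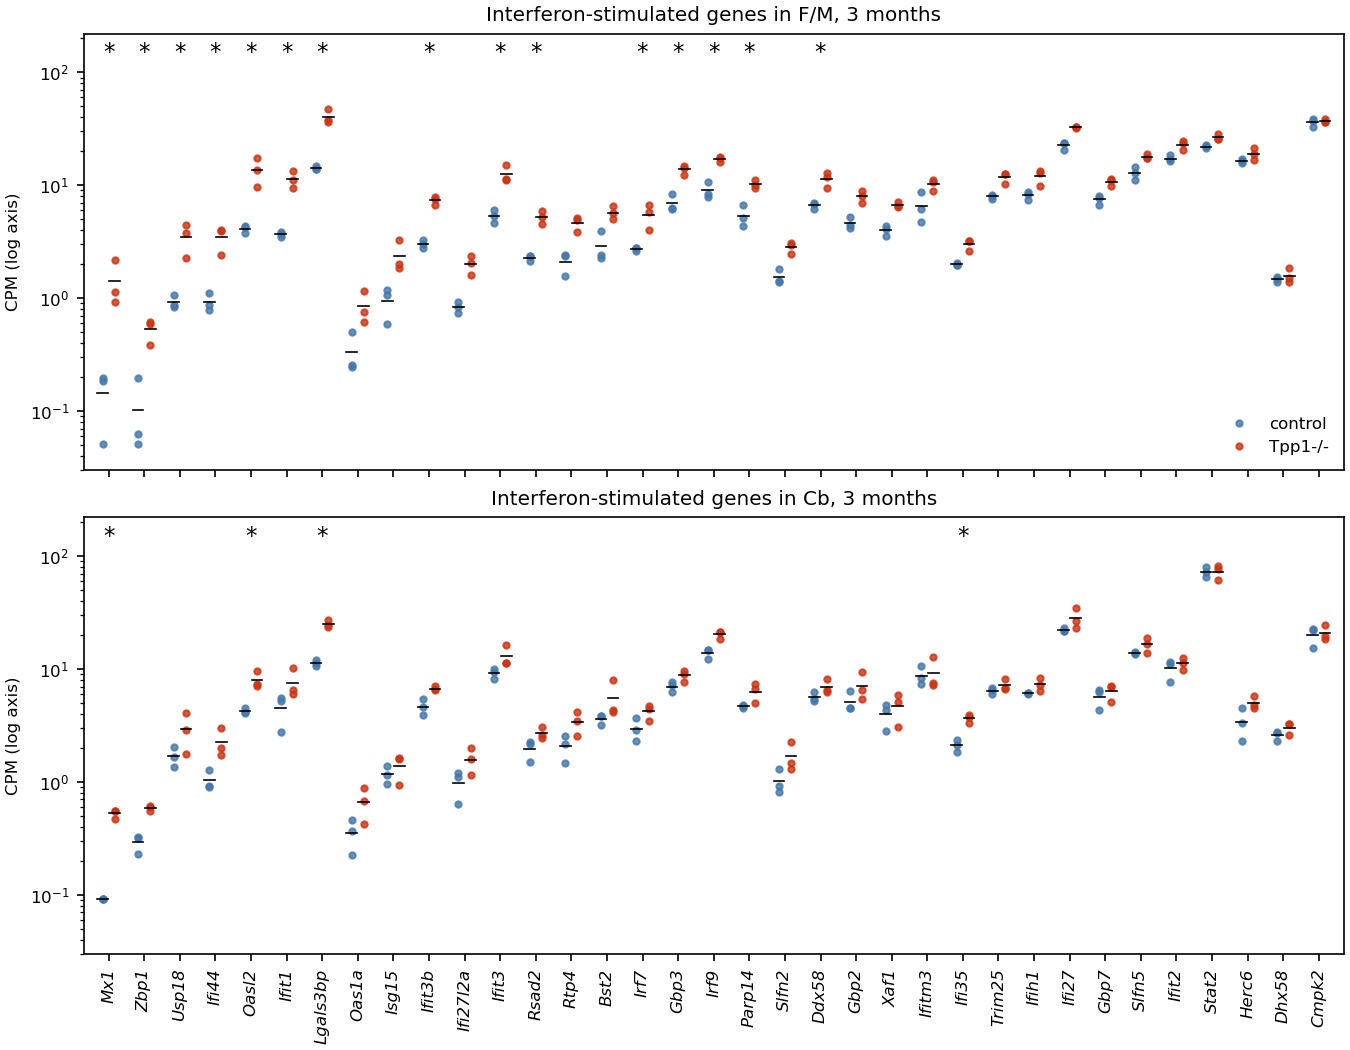
CPM (log axis) of each of the 35 members in every library of 3 months, in F/M (top) and Cb (bottom), ordered by the log2 fold change in F/M. Points are libraries, bars are means of 3, and a star marks a member that was called. The Tpp1-/- points stand clear of the control points for 32 members in F/M and for 18 in Cb.

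Values below are given for replicates 1, 2 and 3 in that order, at 3 months, and fold changes are log2 of Tpp1-/- over control with their standard errors. Of the transcription factors, Irf9, the DNA-binding subunit of the complex that binds the ISRE, was measured in F/M at 17.4, 16.2 and 17.7 CPM in the Tpp1-/- libraries and 10.8, 7.96 and 8.43 CPM in the controls. The groups did not overlap, and the log2 fold change was 0.91 ± 0.13 (adjusted p = 0.00509). The Cb values were 21.2, 18.6 and 21.2 CPM in the Tpp1-/- libraries and 14.6, 14.7 and 12.4 CPM in the controls, again without overlap, and the log2 fold change of 0.55 ± 0.12 (adjusted p = 0.0716) stayed under the 1.5-fold minimum. Irf7, the factor that amplifies interferon transcription, was in F/M at 6.64, 5.79 and 4.01 CPM in the Tpp1-/- libraries and 2.80, 2.61 and 2.76 CPM in the controls. All Tpp1-/- libraries lay above the controls there, with a log2 fold change of 1.01 ± 0.22 (adjusted p = 0.0974), close to the threshold. In Cb, Irf7 was at 4.75, 3.47 and 4.46 CPM in the Tpp1-/- libraries and 2.88, 3.67 and 2.32 CPM in the controls, with overlapping groups and a log2 fold change of 0.51 ± 0.22 (adjusted p = 0.688).

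Stat2, the partner of Irf9, was in F/M at 28.4, 25.6 and 26.0 CPM in the Tpp1-/- libraries and 22.1, 21.3 and 22.8 CPM in the controls. In Cb its level was much higher in either genotype, at 61.2, 76.5 and 81.1 CPM in the Tpp1-/- libraries and 65.4, 72.0 and 80.6 CPM in the controls. It was the member that changed least in Cb, with a log2 fold change of 0.01 ± 0.11 (adjusted p = 0.999), against 0.27 ± 0.12 (adjusted p = 0.777) in F/M. Of the 3 factors, 2 were called in F/M and none in Cb, beside 0.412% and 0.673% of all genes higher. Irf7 kept its call in F/M under only 10 of 21 other settings.

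The sensors detect foreign nucleic acid in the cytosol. Ddx58, an RNA helicase that recognises viral RNA ends, was in F/M at 12.8, 11.95 and 9.41 CPM in the Tpp1-/- libraries and 6.98, 6.78 and 6.16 CPM in the controls. The groups did not overlap and the log2 fold change was 0.78 ± 0.15 (adjusted p = 0.0475). Its levels in Cb were 6.26, 8.13 and 6.57 CPM in the Tpp1-/- libraries and 5.48, 6.28 and 5.24 CPM in the controls, with overlap, and the log2 fold change was 0.30 ± 0.15 (adjusted p = 0.806). Ifih1, which recognises long double-stranded RNA, was in F/M at 13.4, 12.9 and 9.93 CPM in the Tpp1-/- libraries and 8.41, 8.64 and 7.34 CPM in the controls and in Cb at 6.38, 7.15 and 8.40 CPM in the Tpp1-/- libraries and 6.13, 6.01 and 6.10 CPM in the controls. It was not called in either region, with log2 fold changes of 0.57 ± 0.15 (adjusted p = 0.206) in F/M and 0.26 ± 0.15 (adjusted p = 0.855) in Cb. Dhx58, a helicase that tunes both of them, had overlapping groups in each region, in F/M at 1.84, 1.51 and 1.39 CPM in the Tpp1-/- libraries and 1.48, 1.55 and 1.38 CPM in the controls and in Cb at 3.23, 2.62 and 3.24 CPM in the Tpp1-/- libraries and 2.32, 2.80 and 2.69 CPM in the controls. Its log2 fold changes were 0.11 ± 0.21 and 0.22 ± 0.18.

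Zbp1, a sensor of left-handed nucleic acid that can trigger inflammatory cell death, was near the limit of detection. It passed the filter only through the Tpp1-/- libraries, so the filter favoured a rise in it. Its raw counts in F/M were 8, 11 and 12 in the Tpp1-/- libraries and 1, 1 and 4 in the controls, or 0.388, 0.595 and 0.617 CPM in the Tpp1-/- libraries and 0.0510, 0.0622 and 0.197 CPM in the controls. The summed counts of 31 and 6 give a ratio of 4.94 with a 95% exact counting interval of 2.03 to 14.5, and the fitted log2 fold change was 2.25 ± 0.49 (adjusted p = 0.0893). In Cb the counts were 15, 13 and 13 in the Tpp1-/- libraries and 7, 5 and 7 in the controls, or 0.598, 0.550 and 0.610 CPM in the Tpp1-/- libraries and 0.325, 0.229 and 0.319 CPM in the controls. The groups did not overlap in Cb either, but the log2 fold change of 1.00 ± 0.37 (adjusted p = 0.565) was not called. Counting intervals here cover counting error only, since reads without molecular identifiers are not independent molecules.

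Among the genes of the Isg15 system, Usp18 moved most. It encodes the protease that strips Isg15 from proteins and also damps signalling at the type I receptor. In F/M it was at 4.46, 3.79 and 2.26 CPM in the Tpp1-/- libraries and 1.07, 0.870 and 0.838 CPM in the controls, without overlap, and its log2 fold change was 1.91 ± 0.34 (adjusted p = 0.0287). In Cb it was at 4.07, 1.78 and 2.91 CPM in the Tpp1-/- libraries and 2.04, 1.65 and 1.37 CPM in the controls, where 1 Tpp1-/- library lay within the controls, and the log2 fold change was 0.79 ± 0.31 (adjusted p = 0.628). Isg15 itself was in F/M at 3.30, 2.00 and 1.85 CPM in the Tpp1-/- libraries and 1.07, 1.18 and 0.591 CPM in the controls. Those groups did not overlap, but the log2 fold change of 1.35 ± 0.33 (adjusted p = 0.167) missed the threshold. In Cb, Isg15 was at 1.596, 0.931 and 1.64 CPM in the Tpp1-/- libraries and 1.39, 1.15 and 0.957 CPM in the controls, with a log2 fold change of 0.25 ± 0.33 (adjusted p = 0.972).

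Herc6, the main ligase that attaches Isg15 in mice, was in F/M at 21.6, 18.9 and 16.6 CPM in the Tpp1-/- libraries and 16.5, 15.8 and 17.2 CPM in the controls. Its groups overlapped there and its log2 fold change was 0.20 ± 0.17 (adjusted p = 1.00). In Cb its level was lower, at 4.51, 4.78 and 5.82 CPM in the Tpp1-/- libraries and 3.34, 4.49 and 2.32 CPM in the controls, the groups did not overlap and the log2 fold change was 0.57 ± 0.20 (adjusted p = 0.501). Of the annotated exon bases of Herc6, 13.7% are shared with another gene model on the same strand. Trim25, a ubiquitin ligase that activates Ddx58, was in F/M at 12.7, 12.7 and 10.2 CPM in the Tpp1-/- libraries and 8.10, 8.21 and 7.59 CPM in the controls and in Cb at 6.86, 8.08 and 6.71 CPM in the Tpp1-/- libraries and 6.497, 6.79 and 6.06 CPM in the controls. The F/M groups did not overlap and the Cb groups did, with log2 fold changes of 0.58 ± 0.13 (adjusted p = 0.114) and 0.16 ± 0.13 (adjusted p = 0.948).

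The antiviral RNA-binding proteins formed the largest set, with 4 of 8 called in F/M and 1 of 8 in Cb, beside 0.412% and 0.673% of all genes higher. Their median log2 fold change was 1.25 in F/M and 0.64 in Cb, with Oas1a included. Oasl2, a relative of the oligoadenylate synthetases, was in F/M at 17.6, 13.7 and 9.57 CPM in the Tpp1-/- libraries and 4.28, 4.35 and 3.75 CPM in the controls. It rose there by 1.72 ± 0.20 (adjusted p = 0.00139) on the log2 scale. The Cb values were 7.34, 7.07 and 9.53 CPM in the Tpp1-/- libraries and 4.18, 4.49 and 4.10 CPM in the controls, without overlap, and rose by 0.90 ± 0.20 (adjusted p = 0.0698). The control levels of Oasl2 were close in the 2 regions, and the Tpp1-/- libraries of F/M were spread from 9.57 to 17.6 CPM.

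Ifit1, which binds RNA lacking the cap marks of the host, was in F/M at 13.5, 11.1 and 9.41 CPM in the Tpp1-/- libraries and 3.87, 3.73 and 3.50 CPM in the controls. The groups stood well apart and the log2 fold change was 1.61 ± 0.26 (adjusted p = 0.0125). Its levels in Cb were 10.3, 6.01 and 6.48 CPM in the Tpp1-/- libraries and 5.20, 5.55 and 2.78 CPM in the controls, and a high Tpp1-/- replicate 1 and a low control replicate 3 widened the spread. The groups of Cb did not overlap, yet the log2 fold change of 0.76 ± 0.25 (adjusted p = 0.436) was not called. Ifit3, which stabilises Ifit1 on RNA, was in F/M at 14.98, 11.3 and 11.2 CPM in the Tpp1-/- libraries and 5.40, 6.09 and 4.63 CPM in the controls and rose by 1.22 ± 0.18 (adjusted p = 0.00782) on the log2 scale. In Cb, Ifit3 was at 16.3, 11.3 and 11.3 CPM in the Tpp1-/- libraries and 9.37, 9.999 and 8.24 CPM in the controls, with a log2 fold change of 0.50 ± 0.17 (adjusted p = 0.477).

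Ifit3b, its near-identical neighbour, was in F/M at 7.95, 7.52 and 6.74 CPM in the Tpp1-/- libraries and 2.80, 3.05 and 3.25 CPM in the controls. Its replicates were close together and it rose by 1.29 ± 0.16 (adjusted p = 0.00139). In Cb it was at 6.46, 6.60 and 7.09 CPM in the Tpp1-/- libraries and 4.59, 5.46 and 3.92 CPM in the controls, without overlap, and the log2 fold change was 0.53 ± 0.15 (adjusted p = 0.222). Ifit2, a pro-apoptotic member of the family, was in F/M at 24.6, 23.6 and 20.5 CPM in the Tpp1-/- libraries and 18.4, 16.97 and 16.4 CPM in the controls and in Cb at 9.85, 11.2 and 12.6 CPM in the Tpp1-/- libraries and 11.1, 11.6 and 7.61 CPM in the controls. Its log2 fold changes of 0.41 ± 0.15 (adjusted p = 0.599) in F/M and 0.15 ± 0.15 (adjusted p = 0.962) in Cb were not called, although the F/M groups did not overlap. Slfn2, a Schlafen protein that guards transfer RNA in immune cells, was in F/M at 3.05, 2.97 and 2.47 CPM in the Tpp1-/- libraries and 1.43, 1.80 and 1.38 CPM in the controls and in Cb at 2.27, 1.48 and 1.31 CPM in the Tpp1-/- libraries and 1.30, 0.917 and 0.820 CPM in the controls. Neither difference of Slfn2 was called, with log2 fold changes of 0.89 ± 0.25 (adjusted p = 0.288) and 0.75 ± 0.27 (adjusted p = 0.510).

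Oas1a, which makes the oligoadenylate that activates RNase L, had a log2 fold change of 1.38 ± 0.43 (adjusted p = 0.426) in F/M and 0.89 ± 0.42 (adjusted p = 0.774) in Cb, at a mean of 0.846 ± 0.284 CPM in the Tpp1-/- libraries of F/M (SD, n = 3) and 0.333 ± 0.143 CPM in its controls. Slfn5, a nuclear Schlafen protein, had log2 fold changes of 0.48 ± 0.13 (adjusted p = 0.238) and 0.25 ± 0.13 (adjusted p = 0.801) in F/M and Cb. It had control means of 12.9 ± 1.65 CPM in F/M and 13.9 ± 0.242 CPM in Cb.

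The interferon-induced GTPases held the member with the largest fitted change. Mx1, a dynamin-like GTPase that traps viral nucleocapsids, had raw counts of 45, 21 and 18 in the Tpp1-/- libraries of F/M and 1, 3 and 4 in the controls, or 2.18, 1.14 and 0.926 CPM in the Tpp1-/- libraries and 0.0510, 0.187 and 0.197 CPM in the controls. The sums of 84 and 8 counts give a ratio of 10.04 with a 95% exact counting interval of 4.87 to 24.0, and the log2 fold change was 3.26 ± 0.47 (adjusted p = 0.00575). In Cb the counts were 14, 13 and 10 against 2, 2 and 2, or 0.558, 0.550 and 0.469 CPM in the Tpp1-/- libraries and 0.0928, 0.0917 and 0.0911 CPM in the controls. That is a ratio of 5.75 with an interval of 2.41 to 16.7, and a log2 fold change of 2.45 ± 0.55 (adjusted p = 0.0738). Mx1 passed the filter only through the Tpp1-/- libraries, and its low control counts make the size of its change imprecise in both regions.

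Gbp3, a guanylate-binding protein that attacks the membranes around intracellular pathogens, was in F/M at 14.2, 14.9 and 12.4 CPM in the Tpp1-/- libraries and 6.12, 6.34 and 8.43 CPM in the controls. It rose there by 0.99 ± 0.15 (adjusted p = 0.00871), without overlap. The Cb values were 9.61, 7.66 and 9.06 CPM in the Tpp1-/- libraries and 7.61, 7.16 and 6.24 CPM in the controls, with a log2 fold change of 0.33 ± 0.15 (adjusted p = 0.768). Its relative Gbp7 was in F/M at 11.3, 11.03 and 9.93 CPM in the Tpp1-/- libraries and 7.80, 6.71 and 8.08 CPM in the controls and in Cb at 5.11, 7.11 and 6.99 CPM in the Tpp1-/- libraries and 6.497, 6.24 and 4.37 CPM in the controls. The log2 fold changes of Gbp7 were 0.51 ± 0.17 (adjusted p = 0.485) and 0.17 ± 0.17 (adjusted p = 0.962), neither called. For Gbp2, another relative, they were 0.78 ± 0.21 (adjusted p = 0.249) in F/M and 0.46 ± 0.21 (adjusted p = 0.738) in Cb.

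Of the members that act at membranes or outside the cell, Lgals3bp had the smallest adjusted p of all members in each region. It encodes a secreted galectin-binding glycoprotein that also acts in innate immune signalling. In F/M it was at 47.4, 37.9 and 36.1 CPM in the Tpp1-/- libraries and 14.0, 14.9 and 14.0 CPM in the controls. The groups were far apart, and the log2 fold change was 1.5002 ± 0.12 (adjusted p = 1.72e-05). Its levels in Cb were 26.9, 23.6 and 24.7 CPM in the Tpp1-/- libraries and 11.97, 10.6 and 11.3 CPM in the controls, with a log2 fold change of 1.15 ± 0.12 (adjusted p = 0.000118). Bst2, the tether that holds budding virus at the cell surface, was not called, with log2 fold changes of 1.01 ± 0.27 (adjusted p = 0.243) in F/M and 0.61 ± 0.26 (adjusted p = 0.700) in Cb. Ifitm3, which blocks viral fusion in endosomes, had 0.66 ± 0.25 (adjusted p = 0.644) in F/M and 0.06 ± 0.24 (adjusted p = 0.992) in Cb. For Rtp4, a chaperone of membrane receptors, the values were 1.14 ± 0.25 (adjusted p = 0.107) in F/M, just above the threshold, and 0.72 ± 0.25 (adjusted p = 0.488) in Cb, and 13.9% of its exon bases are shared with another gene model.

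Of the nucleotide enzymes Rsad2 and Cmpk2, whose genes lie side by side on chromosome 12, only Rsad2 was called. Rsad2, or viperin, which makes a chain-terminating nucleotide, was in F/M at 5.19, 5.95 and 4.58 CPM in the Tpp1-/- libraries and 2.14, 2.36 and 2.37 CPM in the controls and rose by 1.19 ± 0.19 (adjusted p = 0.0115) on the log2 scale. In Cb it was at 2.43, 2.58 and 3.10 CPM in the Tpp1-/- libraries and 2.18, 2.25 and 1.503 CPM in the controls, with a log2 fold change of 0.45 ± 0.20 (adjusted p = 0.713). Cmpk2, the mitochondrial kinase that supplies nucleotides beside it, was in F/M at 39.0, 36.5 and 36.4 CPM in the Tpp1-/- libraries and 38.8, 37.1 and 32.8 CPM in the controls and in Cb at 24.7, 19.7 and 18.3 CPM in the Tpp1-/- libraries and 22.6, 22.3 and 15.5 CPM in the controls. The groups of Cmpk2 overlapped in both regions, with log2 fold changes of 0.04 ± 0.14 (adjusted p = 1.00) and 0.05 ± 0.15 (adjusted p = 0.991).

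Among the remaining members, Ifi44, a cytoplasmic protein with antiviral activity, was in F/M at 3.98, 4.003 and 2.42 CPM in the Tpp1-/- libraries and 1.12, 0.870 and 0.788 CPM in the controls. It rose there by 1.89 ± 0.29 (adjusted p = 0.00892), without overlap. The Cb values were 1.99, 1.74 and 3.00 CPM in the Tpp1-/- libraries and 0.928, 1.284 and 0.911 CPM in the controls, also without overlap, and the log2 fold change of 1.10 ± 0.29 (adjusted p = 0.166) was not called. Parp14, an ADP-ribosyltransferase, was in F/M at 11.1, 10.1 and 9.41 CPM in the Tpp1-/- libraries and 6.73, 4.35 and 5.12 CPM in the controls and rose by 0.91 ± 0.17 (adjusted p = 0.0430). In Cb, Parp14 was at 5.03, 6.60 and 7.32 CPM in the Tpp1-/- libraries and 4.83, 4.49 and 4.69 CPM in the controls, with a log2 fold change of 0.43 ± 0.18 (adjusted p = 0.662).

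Ifi35, a leucine-zipper protein that can be released from macrophages as a danger signal, was the only member called in Cb and not in F/M. Its levels in Cb were 3.91, 3.30 and 3.76 CPM in the Tpp1-/- libraries and 1.86, 2.34 and 2.14 CPM in the controls, and it rose by 0.79 ± 0.17 (adjusted p = 0.0478) on the log2 scale. In F/M it was at 3.2005, 2.60 and 3.24 CPM in the Tpp1-/- libraries and 2.04, 1.99 and 1.97 CPM in the controls. Those groups did not overlap either, and the log2 fold change was 0.59 ± 0.18 (adjusted p = 0.350). With the 6 libraries of each region fitted alone, Ifi35 passed in F/M and not in Cb. The difference between the regions was 0.20 ± 0.24 (adjusted p = 1.00), so the effect in Cb was not shown to exceed that in F/M. An opposite-strand gene model shares 16.8% of the exon bases of Ifi35.

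Ifi27, a small membrane protein of mitochondria, had log2 fold changes of 0.53 ± 0.13 (adjusted p = 0.170) in F/M and 0.36 ± 0.13 (adjusted p = 0.525) in Cb. Its relative Ifi27l2a had 1.258 ± 0.30 (adjusted p = 0.148) and 0.69 ± 0.29 (adjusted p = 0.692). Xaf1, a partner of the apoptosis inhibitor Xiap, had 0.74 ± 0.23 (adjusted p = 0.434) in F/M and 0.22 ± 0.23 (adjusted p = 0.962) in Cb. None of these 3 was called. Per kilobase of exon, Ifi27 was the most abundant member in the control F/M, at 15.5 ± 1.29 CPM per kilobase (SD, n = 3), followed by Ifitm3 at 9.63 ± 2.91 and Cmpk2 at 8.70 ± 0.742, and Ifitm3 and Cmpk2 did not differ beyond their spread. Zbp1 and Mx1 were the least abundant, at 0.0293 ± 0.0230 and 0.0383 ± 0.0215 CPM per kilobase, and these did not differ beyond their spread either.

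Whether the effect differed between the regions was tested directly, as the log2 fold change in Cb minus that in F/M. It was below 0, a smaller rise in Cb, for 31 of 35 members, with a median of −0.48, and without Mx1, Oas1a and Zbp1 for 28 of 32, with a median of −0.42. Only 4 members were above 0, Herc6, Ifi35, Dhx58 and Cmpk2, while 48.9% of all genes were. No member passed an adjusted p of 0.1 in edgeR, DESeq2 or limma-voom, where edgeR called 1 of 17224 genes (0.00581%). At an unadjusted p under 0.05 in edgeR, 11 members had a smaller effect in Cb and none a larger one, beside 2.0% of all genes with a smaller one. They were Ifit3b with -0.76 ± 0.21, Gbp3 with -0.66 ± 0.21, and Ifit3, Oasl2, Rsad2, Usp18, Ifit1, Isg15, Trim25, Ddx58 and Lgals3bp. The smallest adjusted p was 0.978, for Ifit3b, so no member was shown to differ between the regions in its response.

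**Figure D2:**
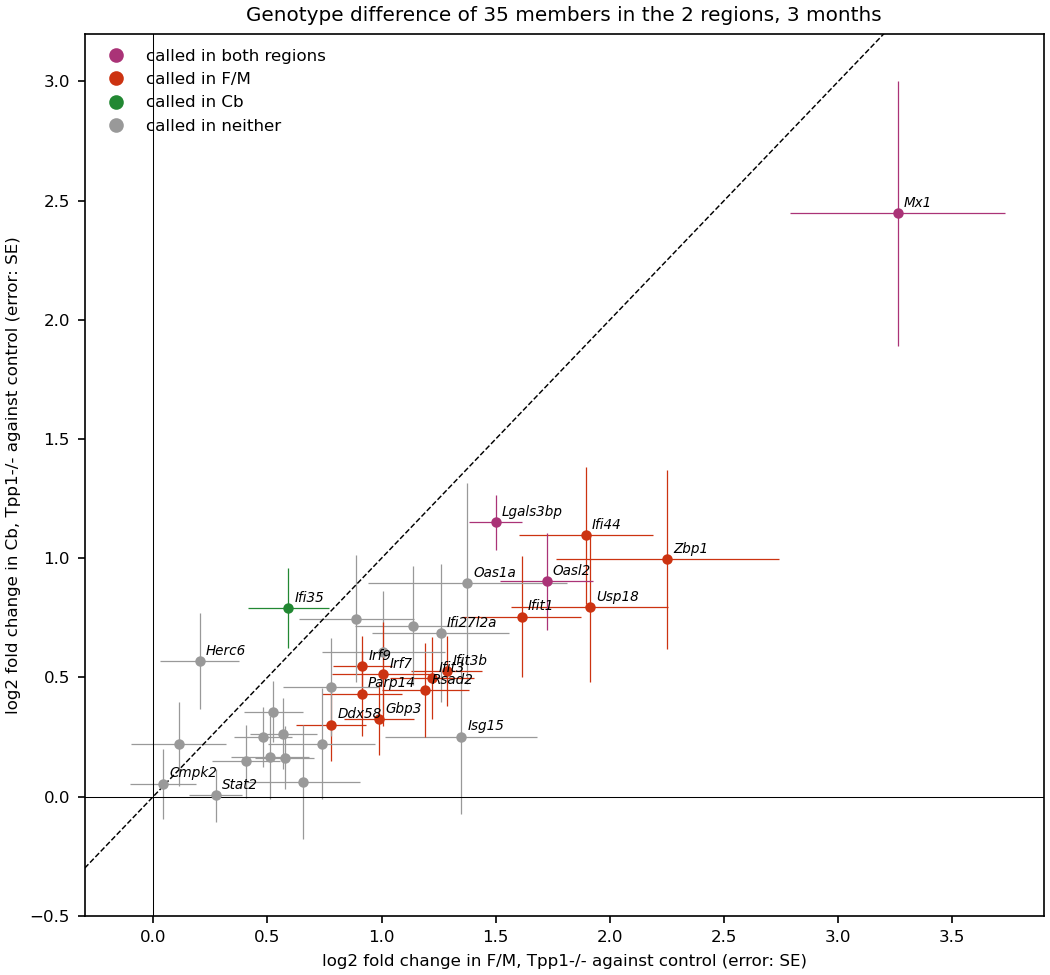
Log2 fold change of Tpp1-/- over control at 3 months in F/M (x axis) and Cb (y axis) for the 35 members, with standard errors as bars and the line of equal change dashed. All points lie above 0 on both axes, 31 of 35 lie below the dashed line, and Mx1 has the largest value in each region.

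The levels themselves were then compared between the regions within a genotype, at the same thresholds. In the controls, 7 members were higher in Cb and 4 lower, beside 17.8% and 19.9% of all genes. In the Tpp1-/- libraries, 2 were higher in Cb and 16 lower, beside 17.7% and 20.4%. The number of members lower in Cb was thus 4 in the controls and 16 in the Tpp1-/- libraries, and 6 members were called in both genotypes, out of 11 and 18. Leaving out Mx1, Oas1a and Zbp1, 6 were higher and 4 lower in the controls, and 2 higher and 15 lower in the Tpp1-/- libraries. Without Cb control replicate 2 the count in controls was 7. These comparisons use the same libraries as the genotype comparisons above and are not separate evidence.

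Herc6 had the largest difference between regions, at a log2 of Cb over F/M of -2.29 ± 0.19 in controls (adjusted p = 2.22e-07) and -1.92 ± 0.18 in Tpp1-/- libraries (adjusted p = 7.92e-07). Stat2 was higher in Cb by 1.72 ± 0.12 (adjusted p = 2.19e-08) in controls and by 1.45 ± 0.12 (adjusted p = 1.12e-07) in Tpp1-/- libraries. Dhx58 was also higher in Cb in both, by 0.82 ± 0.19 and 0.93 ± 0.19. Cmpk2, Ifit2 and Slfn2 were lower in Cb in both, and for Ifit2 the differences were -0.77 ± 0.15 and -1.03 ± 0.15. These 6 were called with the same sign in either genotype, although Slfn2 kept its call in controls under only 10 of 21 other settings.

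For Zbp1, Usp18, Ifit3, Ifit3b and Irf9 the control level was higher in Cb, and in the Tpp1-/- libraries no difference was called. Ifit3 kept its control call under all 21 other settings, Ifit3b under 19, Irf9 under 17, Usp18 under 16 and Zbp1 under 15 of 19. Usp18, for example, went from a log2 of Cb over F/M of 0.86 ± 0.37 (adjusted p = 0.0645) in controls to -0.26 ± 0.29 (adjusted p = 0.479) in Tpp1-/- libraries. Ifit3b went from 0.62 ± 0.16 (adjusted p = 0.00479) to -0.14 ± 0.14 (adjusted p = 0.429). A further 12 members had no regional difference called in controls and were lower in Cb in the Tpp1-/- libraries. They were Oasl2, Isg15, Rsad2, Ifi44, Mx1, Ddx58, Ifih1, Parp14, Trim25, Gbp3, Gbp7 and Lgals3bp. For Oasl2 the log2 of Cb over F/M was 0.05 ± 0.21 (adjusted p = 0.870) in controls and -0.77 ± 0.19 (adjusted p = 0.00366) in Tpp1-/- libraries, and for Rsad2 it was -0.21 ± 0.20 (adjusted p = 0.414) and -0.95 ± 0.18 (adjusted p = 0.000545).

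**Figure D3:**
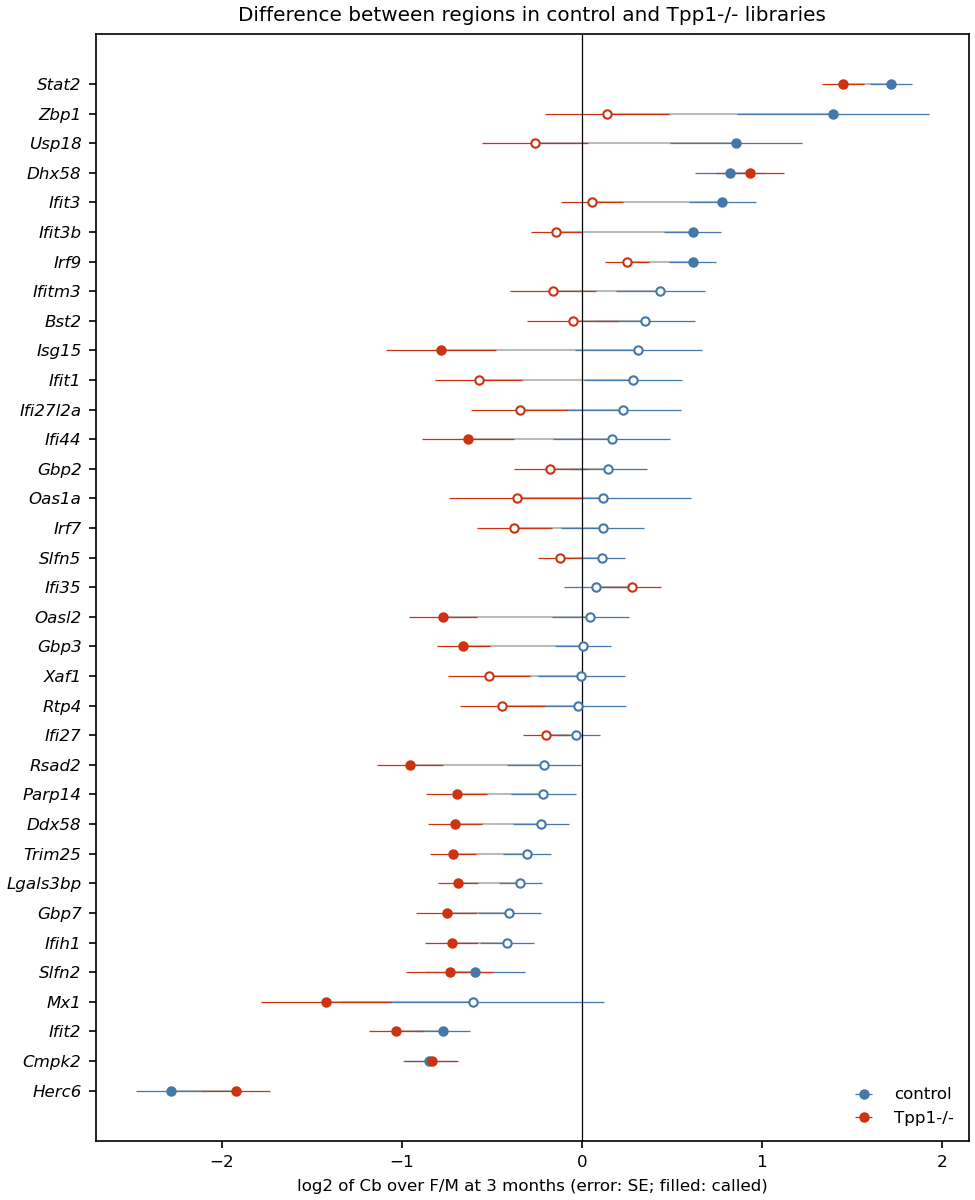
Log2 of Cb over F/M at 3 months for each member in control and in Tpp1-/- libraries, with standard errors. Filled points were called. For most members the Tpp1-/- point lies to the left of the control point, and 16 are called lower in Cb in the Tpp1-/- libraries against 4 in the controls.

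At 1 and 2 months no member was called. At 1 month the edgeR test called 0 of 33 tested members in F/M and 0 in Cb, beside 0.0112% of all genes in F/M and 0.0112% in Cb, and DESeq2 and limma-voom called none. At an unadjusted p under 0.05 there was 1 member in F/M, Dhx58, beside 1.89% of all genes, and 3 in Cb, Lgals3bp, Gbp7 and Rsad2, beside 7.66%. The median log2 fold change was −0.08 in Cb and 0.09 in F/M. At 2 months the test called 0 of 33 in each region, beside 0.737% of all genes in F/M and 2.05% in Cb, and again neither other method called any. Unadjusted p-values under 0.05 were found for 4 members in F/M and 2 in Cb, beside 16.9% and 9.67% of all genes. The medians were 0.20 in F/M and −0.02 in Cb, and 27 of 33 members were above 0 in F/M, where 50.8% of all genes were.

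The nearest to a call in F/M at 2 months were Lgals3bp and Slfn5. Lgals3bp was at 20.4, 20.6 and 17.5 CPM in the Tpp1-/- libraries and 11.8, 17.3 and 14.3 CPM in the controls, with a log2 fold change of 0.44 ± 0.13 (adjusted p = 0.0974), under the 1.5-fold minimum. Slfn5 was at 13.8, 14.8 and 15.97 CPM in the Tpp1-/- libraries and 11.6, 8.55 and 9.48 CPM in the controls, with a log2 fold change of 0.58 ± 0.16 (adjusted p = 0.0830), just under that minimum. Neither pair of groups overlapped. Of the members not tested at these ages, Mx1 had at most 12 counts and Zbp1 at most 11 counts in any library of 1 month, and at most 10 and 9 in any library of 2 months. No member differed in effect between the regions at 1 or 2 months in edgeR, DESeq2 or limma-voom, where edgeR called 0.0% and 2.97% of all genes. At an unadjusted p under 0.05 there were 1 and 3 such members, beside 1.94% and 11.5%.

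The effect at 3 months was compared with that at 2 months in one model of all 36 libraries. In F/M it was larger at 3 months for 34 of 35 members, and 5 passed an adjusted p of 0.1, beside 0.158% of all genes higher by that rule. In Cb it was larger for 33 of 35 and 2 passed, beside 1.3%. At an unadjusted p under 0.05 the effect was larger for 20 members in F/M and 13 in Cb, beside 3.76% and 4.4% of all genes. Leaving out Mx1, Oas1a and Zbp1, 4 of 32 members passed in F/M and 2 of 32 in Cb, and the effect was larger for 31 and 30. The count in F/M was 9 with no filter on low counts and 3 in limma-voom. It was 2 without control replicate 2 or Tpp1-/- replicate 3 of 2 months or Tpp1-/- replicate 1 of 3 months, and 3 without any of 4 other libraries of F/M. The count in Cb was 1 without any of 10 libraries. The ages differ in sex pattern, annotation and counting run, which cannot be told apart from age in these values, although each effect was formed within an age.

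The 5 members in F/M were Oasl2, Irf9, Lgals3bp, Mx1 and Usp18. For Oasl2 the effect grew by 1.49 ± 0.29 (adjusted p = 0.0159) on the log2 scale, from libraries at 2 months of 3.79, 5.43 and 4.78 CPM in the Tpp1-/- libraries and 4.14, 3.91 and 3.72 CPM in the controls that overlapped. For Irf9 it grew by 0.89 ± 0.17 (adjusted p = 0.0165), from 13.8, 13.5 and 11.7 CPM in the Tpp1-/- libraries and 14.0, 12.02 and 12.3 CPM in the controls. The growth was 1.07 ± 0.22 (adjusted p = 0.0250) for Lgals3bp. For Mx1 it was 3.18 ± 0.72 (adjusted p = 0.0535), from 0.399, 0.505 and 0.478 CPM in the Tpp1-/- libraries and 0.376, 0.386 and 0.524 CPM in the controls at 2 months. Mx1 failed the filter in the fit of 2 months and passed that of 3 months only through the Tpp1-/- libraries. Usp18 had 1.84 ± 0.45 (adjusted p = 0.0872), from 1.15, 1.64 and 1.53 CPM in the Tpp1-/- libraries and 1.13, 1.59 and 1.31 CPM in the controls. In Cb the 2 members were Lgals3bp, with 1.10 ± 0.22 (adjusted p = 0.00419) from 13.4, 13.7 and 12.6 CPM in the Tpp1-/- libraries and 10.9, 14.8 and 12.6 CPM in the controls, and Oasl2, with 1.00 ± 0.28 (adjusted p = 0.0818) from 4.62, 5.09 and 4.44 CPM in the Tpp1-/- libraries and 3.68, 6.24 and 5.14 CPM in the controls. The groups of 2 months overlapped for all of these except Lgals3bp in F/M. Over 30 other settings Usp18 kept its call in F/M under only 13, Mx1 under 20 of 29, Lgals3bp under 27, and Oasl2 and Irf9 under all, while in Cb Oasl2 kept it under 19 and Lgals3bp under all. In F/M the control values of Mx1, Irf9 and Usp18 at 2 months all stood above those of 3 months, but the ages were counted separately and these levels were not tested against each other.

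**Figure D4:**
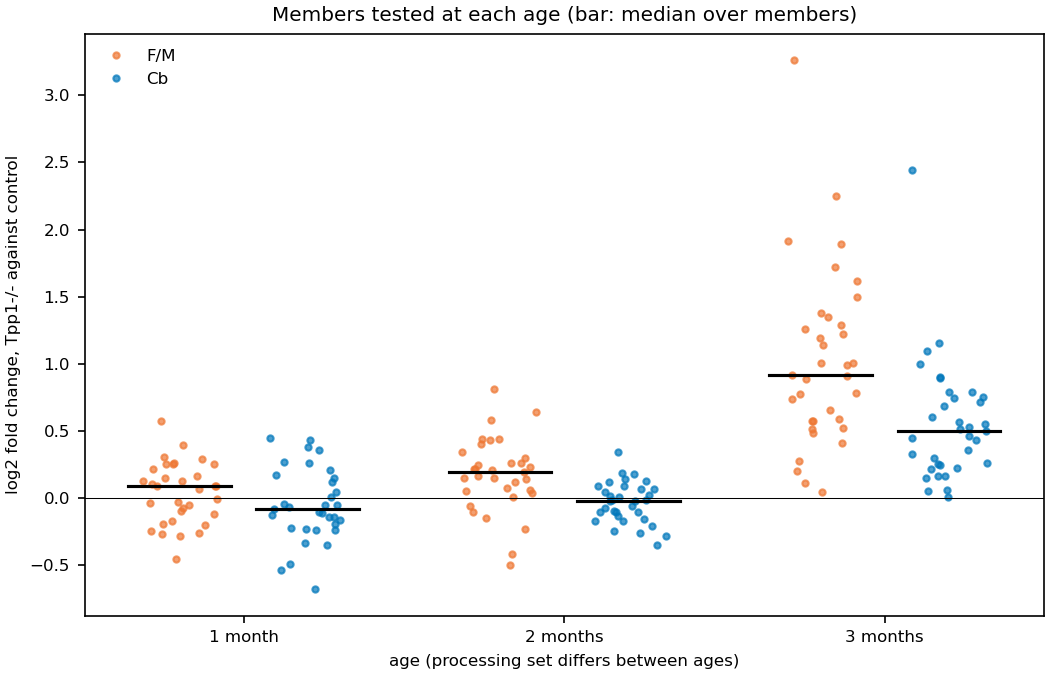
Log2 fold change of Tpp1-/- over control for the members tested at each age (33, 33 and 35) in F/M and Cb, with the median as a bar. The medians are 0.09, 0.20 and 0.91 in F/M and −0.08, −0.02 and 0.50 in Cb, for 1, 2 and 3 months in turn.

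Upstream of the members, no interferon gene was measurable. The 21 ligand genes examined, among them Ifnb1, Ifng and the Ifna family, gave 10 counts in all over the 36 libraries, and at 3 months 1 count of Ifnl2 in Tpp1-/- F/M and 1 of Ifnab in Tpp1-/- Cb. A count of 0 allows up to 3 counts, or 0.141 to 0.178 CPM in a library of F/M at 3 months, so lower levels of ligand messenger RNA were not detectable at this depth. The receptor genes were measurable and none was called. Ifnar1 had means of 46.2 ± 2.55 CPM in Tpp1-/- and 45.8 ± 2.80 CPM in control F/M (SD, n = 3), and its log2 fold changes were 0.01 ± 0.09 in F/M and 0.03 ± 0.09 in Cb. Those of Ifnar2 were 0.06 ± 0.14 and 0.18 ± 0.14. For the receptor of interferon gamma they were -0.10 ± 0.13 and -0.00 ± 0.13 for Ifngr1, and -0.03 ± 0.12 and 0.08 ± 0.12 for Ifngr2. Il10rb, a subunit of the interferon lambda receptor, had 0.23 ± 0.20 and 0.19 ± 0.20, and its partner Ifnlr1 failed the filter on low counts.

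Among genes of receptor signalling, Ptpn6, a phosphatase of blood-lineage cells that damps receptor kinases, rose in Cb by 0.95 ± 0.19 (adjusted p = 0.0333). Among 22 genes of other sensors and their adaptors, of which 20 were tested, 1 was called in F/M and 3 in Cb, all higher. Ifi204, a DNA sensor, rose in F/M by 2.25 ± 0.39 (adjusted p = 0.0223) and in Cb by 2.16 ± 0.39 (adjusted p = 0.0160). Ifi207 and Tlr7, an RNA receptor of endosomes, rose in Cb, by 2.33 ± 0.41 (adjusted p = 0.0152) and 1.2598 ± 0.21 (adjusted p = 0.0111).

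Of 52 further interferon-stimulated genes outside the 35, 40 were tested at 3 months, and 3 were called in F/M and none in Cb. The median log2 fold change of the 40 was 0.48 in F/M and 0.12 in Cb. The 3 were Oas1b (2.53 ± 0.48), Oas2 (2.13 ± 0.37) and Slfn8 (1.36 ± 0.27). Of 20 genes best known as targets of interferon gamma, 15 were tested, and 3 were called in F/M and 2 in Cb. Cxcl10, a chemokine that draws T cells, was called in both, with means of 3.17 ± 1.47 CPM in Tpp1-/- and 0.259 ± 0.142 CPM in control F/M. Its log2 fold changes were 3.55 ± 0.50 (adjusted p = 0.00509) in F/M and 2.67 ± 0.51 (adjusted p = 0.0246) in Cb. That control mean lies below the level of about 10 counts that the filter needs, so the filter may have favoured a rise in Cxcl10. Gbp6 rose in F/M by 2.22 ± 0.41 (adjusted p = 0.0363) and Irgm1, an immunity-related GTPase, by 0.88 ± 0.13 (adjusted p = 0.00644). Irf8, a transcription factor of microglia and macrophages, rose in Cb by 1.61 ± 0.18 (adjusted p = 0.000375). Whether the raised genes outside the 35 passed the filter only through the Tpp1-/- libraries was not checked.

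Part of the microglial markers rose beside the members, and the median changes of both marker lists were larger in Cb. Of 12 markers of disease-associated microglia, 6 were called higher in F/M and 8 in Cb, with median log2 fold changes of 0.94 and 1.85. Their summed level was 1089 to 1195 CPM in Tpp1-/- and 1091 to 1248 CPM in control F/M, and 1077 to 1885 against 951 to 1315 CPM in Cb. Most of that sum is Apoe, which had a mean of 945 ± 52.1 CPM in Tpp1-/- and 1023 ± 80.6 CPM in control F/M. Of 12 markers of homeostatic microglia, none was called in F/M and 2 were called higher in Cb, with medians of 0.04 and 0.46 and summed levels of 486 to 534 against 439 to 461 CPM in F/M and 230 to 294 against 145 to 180 CPM in Cb. The difference between the regions, Cb less F/M, had a median of 0.43 over the disease-associated and 0.33 over the homeostatic markers, and of −0.48 over the members. In the tests of that difference, 1 of the 12 disease-associated markers and none of the homeostatic markers or members passed an adjusted p of 0.1. The marker that passed was Lpl, a lipase of lipid-laden microglia, with a difference of 1.94 ± 0.24. All 12 homeostatic markers were called lower in Cb than in F/M in controls, and 11 of 12 in Tpp1-/- libraries. The part of microglial number or state in the members' values was not tested.

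**Figure D5:**
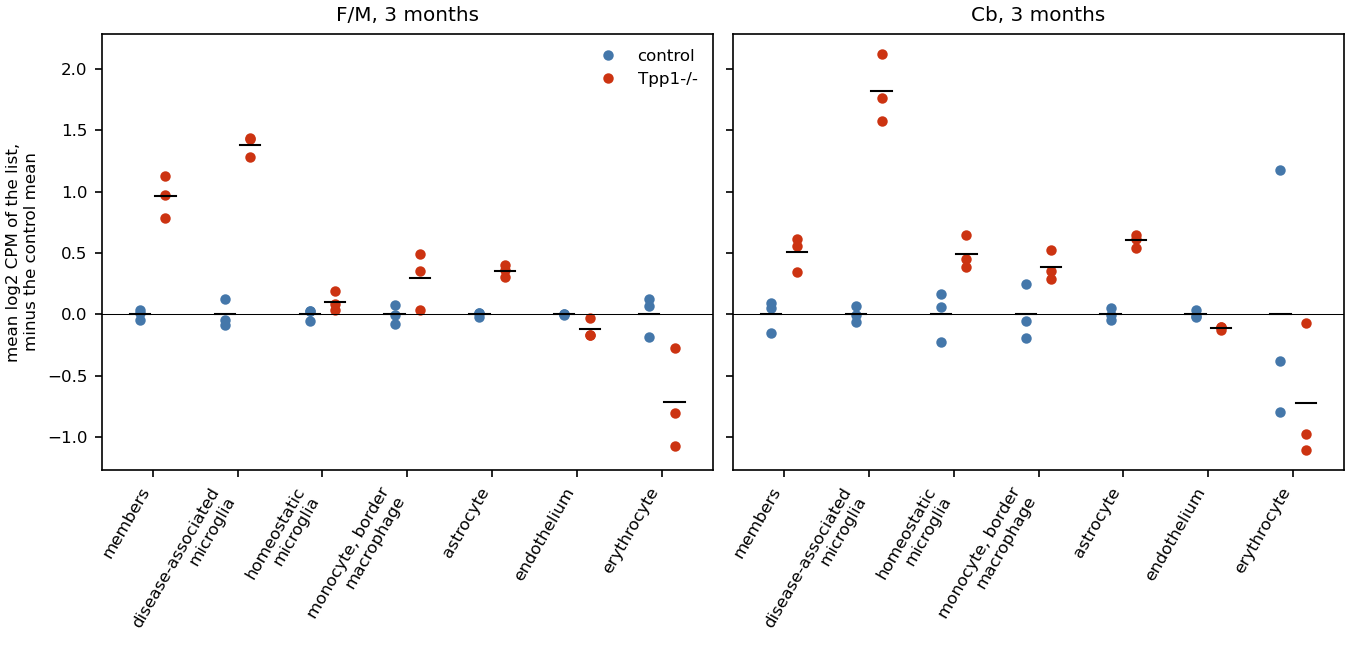
Mean log2 CPM of the members and of 6 marker lists in each library of 3 months, minus the mean of the 3 control libraries of the same region, with bars at the group means. In F/M the Tpp1-/- libraries lie 0.78 to 1.13 above the control mean for the members and 1.284 to 1.435 for the disease-associated microglia, and in Cb they lie 0.34 to 0.62 and 1.57 to 2.12 above it. The members include Mx1, Oas1a and Zbp1, which passed the filter only through the Tpp1-/- libraries.

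Of 8 markers of monocytes and border macrophages, 6 were tested and none called, and the list summed to 14.6 to 17.6 CPM in Tpp1-/- and 13.7 to 15.3 CPM in control F/M. In Cb it summed to 11.4 to 13.5 CPM in Tpp1-/- and 9.17 to 10.2 CPM in control libraries, without overlap. The mean log2 CPM over the 6 exceeded the control mean by 0.29 in F/M and 0.39 in Cb. Of 10 markers of T cells and natural killer cells, Cd3d, Cd3e, Cd3g, Cd8a, Cd8b1, Gzma, Gzmb and Nkg7 had at most 5 counts in any library of 3 months. Cd4 and Trac passed the filter and neither was called. Trac, a segment of the T cell receptor, had 5 to 11 counts in the controls and 9 to 20 in the Tpp1-/- libraries of F/M, and 31 to 38 against 35 to 59 in Cb. The pair summed to 8.92 to 12.1 CPM in Tpp1-/- and 10.4 to 12.2 CPM in control F/M, and to 1.65 to 2.63 against 1.64 to 1.93 CPM in Cb, and the groups overlapped in both regions. Of 10 endothelial markers none was called, and their medians were −0.11 in F/M and −0.13 in Cb. Their mean log2 CPM against the control mean was at −0.17 to −0.03 in the Tpp1-/- libraries of F/M and −0.12 to −0.10 in those of Cb, below all controls in each region. Of 5 erythrocyte markers none was called, and their medians were −0.60 and −0.88. Their mean was at −1.07 to −0.27 in the Tpp1-/- libraries of F/M, below all controls, and the groups of Cb overlapped. Of 8 astrocyte markers 2 were called higher in each region, Gfap and Serpina3n, and the list had medians of 0.11 and 0.08. Its mean log2 CPM exceeded the control mean by 0.30 to 0.40 in the Tpp1-/- libraries of F/M and by 0.54 to 0.65 in those of Cb, without overlap. Of 8 oligodendrocyte markers none was called, and their mean in the Tpp1-/- libraries of F/M was at −0.34 to −0.17 against the control mean, below all controls, while the groups of Cb overlapped. The mean of 8 cerebellar markers, none of them called, was at −0.40 to −0.26 in the Tpp1-/- libraries of F/M, again below all controls, and overlapped in Cb. Shifts without overlap were also found for 3 further lists with no marker called. The mean of 8 forebrain markers was at −0.13 to −0.05 in the Tpp1-/- libraries of F/M, and that of 8 neuron markers at −0.08 to −0.06 in those of Cb. The other list held the 3 tested markers of plasmacytoid dendritic cells, at 0.12 to 0.29 in the Tpp1-/- libraries of Cb. At 2 months that list was at −0.78 to −0.44 in the Tpp1-/- libraries of Cb. Its tested markers had a mean log2 CPM of 5.75 in F/M control replicate 1 of 1 month, in whole tissue. Its shift is not read as one of that cell type. The part of these cells in the members' values was not tested.

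Genes outside the interferon lists were ranked by how closely their log2 CPM followed the mean pattern of the 16 members called in either region, over the 12 libraries of 3 months. The 10 with the highest Pearson correlation, as a description over libraries that share their regions and genotypes, were Mmp12 (0.954), Trim30a (0.948), Lcp1 (0.945), Plek (0.940), Itgax (0.937), AC102225.2 (0.933), Cd22 (0.921), Cst7 (0.916), Hmox1 (0.916) and Ly9 (0.899). The 16 members were themselves picked as raised in Tpp1-/-, so genes that follow them differ by genotype through that choice. The changes given next are therefore no separate evidence. Mmp12, a protease of activated macrophages, had log2 fold changes of 5.30 in F/M with an adjusted p of 0.00432, and 3.23 in Cb, with 0.0128. Trim30a, which restrains inflammatory signalling, had 1.13 in F/M, with an adjusted p of 0.0198, and 0.72 in Cb, with 0.182. Itgax and Cst7 also belong to the disease-associated microglial list above.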

How the data were processed

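Messenger RNA was sequenced from F/M and Cb of Tpp1-/- and control mice, with 3 libraries for each region, genotype and age. The authors prepared TruSeq stranded libraries, aligned single-end reads with STAR (version 2.5.2b in the submitters' processing notes) to the mouse genome GRCm38 and counted reads per gene with featureCounts. The authors deposited these read counts per gene, not normalized, in 1 table per library. Per the file headers, 1 month was counted with featureCounts 1.6.3 on GENCODE M21, 2 months with 1.6.2 on M16 and 3 months with 1.6.2 on M18. The strand settings in the headers were 1, 2 and 1 in that order, and the headers name fractional counting of multi-mapped reads although the values are whole. Levels were therefore tested only within an age. Totals of 10609896 to 29942380 counts set the precision of low genes.

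Counts were analysed in R 4.3.3 with edgeR 4.0.16. Genes with low counts were removed with filterByExpr, libraries were scaled by TMM, and 1 quasi-likelihood model per age held its 12 libraries as 4 groups. P-values were adjusted by Benjamini-Hochberg over all genes tested. A gene was called at an adjusted p below 0.1 with at least a 1.5-fold difference, and a difference between effects at an adjusted p below 0.1 alone. Effects at 3 and 2 months were compared in 1 fit of 36 libraries over the genes shared by all 3 ages. CPM are counts over the TMM library size. DESeq2 1.42.0 and limma-voom (limma 3.58.1), other scalings, no filter, a covariate from the sex labels (which did not hold, so it adjusts for no measured sex difference), a replicate block, 6 libraries alone and leaving out each library were alternatives. The procedure was run on simulated counts in which only Cb genes changed with genotype, so a rise in F/M was not simulated. Shared sequence was measured as 50-base words in GENCODE M21 transcripts, and motifs were counted in RefSeq windows with Python 3.11.15, pandas 2.3.3 and scipy 1.17.1.

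Values in every library are given for members called in any comparison, for the 5 with the largest change in each region and for the 5 with the largest difference between regions in controls. Of the other pathway genes, ligands, receptors and those called at 3 months are given, except 1 gene that is not reported here and is no member. The members and lists were chosen with earlier results of these data known.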

Additional observations from a re-analysis of the deposited data

Results flagged for a closer look

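The difference between the effects at 3 and 2 months passed an adjusted p of 0.1 in edgeR for 7 effects of members, given as the log2 fold change at 3 months minus that at 2 months. In F/M these were Mx1 at 3.18, Usp18 at 1.84, Oasl2 at 1.49, Lgals3bp at 1.07 and Irf9 at 0.89. In Cb they were Lgals3bp at 1.10 and Oasl2 at 1.00. For each, 3 Tpp1-/- and 3 control libraries were compared at each age. The libraries of 2 and 3 months also differ in sex pattern, annotation and counting run, which cannot be told apart from age.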

How the results depend on the processing

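Calls were recomputed under each alternative, and at 1 month and for the difference of effects between regions at 3 months all counts of called members stayed at 0, except 1 in Cb at 1 month with 1 library left out. At 2 months in F/M there was 1 call with no filter on low counts and 2 with no fold minimum, and with no filter 1 member differed between regions. At 3 months, F/M had 24 calls (14 shared with the 15) when its 6 libraries were fitted alone. Cb then had 1, and it had 2 in limma-voom, in all 3 methods alike and at an adjusted p under 0.05. The labels do not say that same-numbered libraries share a mouse. Their deviations from the group means correlated at −0.07 to 0.098 at 3 months and −0.041 to 0.164 at 2 months. At 1 month they correlated at −0.085 to 0.229, and those of F/M and Cb at 0.124 to 0.198 in controls and 0.095 to 0.16 in Tpp1-/-. No set of pairs was over 0.1 in both genotypes, so numbers were not taken to pair samples, although at 1 month the F/M and Cb numbers came close. Same-numbered F/M and Cb libraries of a group and age also carry the same sex and genotype labels. The main comparisons between regions treat all libraries as independent, which would not hold if they shared mice. With the replicate block, F/M had 13 calls and Cb 2 at 3 months. For effects growing from 2 to 3 months, F/M had 9 with no filter, 3 in limma-voom, 3 in all methods alike and 3 at an adjusted p under 0.05, and Cb had 1 in all methods alike and 1 at an adjusted p under 0.05. With each library left out in turn, counts ran from 9 to 21 in F/M and 1 to 5 in Cb at 3 months, 0 to 2 in F/M at 2 months, 0 to 1 in Cb at 1 month, 7 to 11 and 14 to 20 between regions in control and Tpp1-/- libraries, and 2 to 6 and 1 to 3 for the growth of effects in F/M and Cb, and were 0 to 0 for the others. The log2 fold change of 5 members turned negative without 1 library. It ran from −0.0291 (without control replicate 3) to 0.089 for Cmpk2 and from −0.0238 (without Tpp1-/- replicate 1) to 0.19 for Dhx58 in F/M. In Cb it ran from −0.102 (without control replicate 3, and below 0 without Tpp1-/- replicate 1 too) to 0.150 for Cmpk2, from −0.0731 (without Tpp1-/- replicate 3, and below 0 without Tpp1-/- replicate 2 or control replicate 1 too) to 0.120 for Stat2, from −0.249 (without Tpp1-/- replicate 1, and below 0 without control replicate 2 too) to 0.225 for Ifitm3 and from −0.0213 (without control replicate 3) to 0.261 for Ifit2. The cause was not tested. The low counts of Mx1 and Zbp1 limit their precision.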
